A study of Mus musculus with 20 samples.

Results

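A set of 10 transcripts of liver parenchymal cells was followed in RNA from sorted liver macrophages. They are *Alb*, *Apoa1*, *Apoa2*, *Apob*, *Ttr*, *Trf*, *Fgb*, *Fabp1*, *Serpina1a* and *Ahsg*, and their rows were taken by gene symbol from the table of 59311 annotated genes. For 9 of the 10 the symbol stood alone on its row, and *Serpina1a* shares its row with 2 close copies, *Serpina1b* and *Serpina1c*. The study asked whether inhibition of MAIT cells, innate-like T cells that recognise vitamin B metabolites on the molecule MR1, changes liver macrophages during the regression of fibrosis. Male C57BL/6 mice (C57BL/6J in the Methods) of 10 to 12 weeks received CCl4, a hepatocyte toxin (0.6 ml/kg, 2 injections per week), for 4 weeks. Mice 16 to 20 were given Ac-6-FP (0.25 mg/kg), an MR1 ligand that blocks the activation of MAIT cells, while mice 11 to 15 had vehicle alone (1% DMSO in PBS), from 2 h before the last CCl4 injection and daily over the next 2 days. Ly6C hi and Ly6C low monocyte-derived macrophages (MoMac) were sorted from the livers as CD11b+ F4/80+ cells that were negative for CD3, CD11c and Ly6G, which gave 20 libraries, 5 in each of 4 groups. All 10 mice carried CCl4 injury, so that no library came from a healthy liver.

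Hepatocytes make most proteins of blood plasma. Carriers such as albumin, the apolipoproteins of circulating fat particles, clotting factors and protease inhibitors are transcribed there at levels that few other genes of the body reach, under factors such as HNF4 and C/EBP proteins. For this reason their RNA is often read as a measure of hepatocyte RNA that travels with other liver cells through tissue digestion and sorting. In bulk libraries a carry-over of hepatocyte RNA, a few hepatocytes within the gate and a low transcription by the macrophages themselves cannot be told apart, nor can fewer cells and less RNA per cell.

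The start regions of 4 of these genes are printed here because hepatocyte factors are known to bind short letter runs of this kind, and because *Apoa2* and *Alb* are among the genes the results turn on. Each run holds the 120 bases before the transcription start, read 5′ to 3′ on the gene's strand from RefSeq (build GRCm38.p6). Capitals mark matches on either strand to the C/EBP motif TTGCNNAA or the TATA box TATAAA, and none of these matches overlapped.
Alb, chr5:90460750-90460869, plus strand: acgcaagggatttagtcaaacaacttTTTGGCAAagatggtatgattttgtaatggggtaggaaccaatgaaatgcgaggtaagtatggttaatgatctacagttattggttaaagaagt
Fgb, chr3:83049864-83049983, minus strand: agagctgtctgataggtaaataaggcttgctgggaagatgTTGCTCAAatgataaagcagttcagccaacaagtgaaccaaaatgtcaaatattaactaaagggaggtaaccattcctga
Ahsg, chr16:22891895-22892014, plus strand: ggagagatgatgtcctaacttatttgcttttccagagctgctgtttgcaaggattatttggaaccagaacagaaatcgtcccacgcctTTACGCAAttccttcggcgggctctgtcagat
Apoa2, chr1:171224934-171225053, plus strand: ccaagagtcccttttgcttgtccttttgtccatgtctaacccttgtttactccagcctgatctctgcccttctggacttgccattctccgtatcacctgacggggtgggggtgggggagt
*Alb*, *Fgb* and *Ahsg* each held a C/EBP match in this window, and *Apoa2* held neither motif. Over 250 bases before the start, 8 of the 10 genes had an entry. The C/EBP motif was found in 5 of these 8, against 8.98% of 16522 promoters. The TATA box was found in 3 of 8, against 11.9%. A run of the HNF4 site, CAAAGTCCA, was found in 0 of 8 (0.381% of all promoters), and GAGGAAGT, a run bound by the macrophage factor PU.1, in 0 of 8 (2.25%). Among 71 promoters of hepatocyte genes, the members included, the C/EBP motif was found in 21.1%. These are matches of letters and not measured binding.

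Reads counted on genes, recovered from the values, numbered 5693049 to 18682437 per library, and 5343 to 15766 genes were above 0. The values are counts divided by the size factor of each library and are called normalized counts here. The Ly6C low vehicle library of mouse 13 stood apart, with 5343 genes and the fewest reads, and values without it are given beside results that it moves. A value of 0 allows up to 3 reads, which was 1.87 to 6.26 normalized counts depending on the library, for counting error only. Of the macrophage markers, *Cd68* had a mean of 13380 in Ly6C hi and 13990 in Ly6C low libraries and *Csf1r* 5846 and 9921, while *Mertk* had 18.7 and 4.82. *Ly6c2*, a Ly6C antigen, had 7403 and 688. Ly6C low libraries also held genes of other leukocytes. *Retnlg*, known from neutrophils, had a mean of 40890 there and 114 in Ly6C hi libraries. *Klrb1c*, known from NK cells, had 7237 and 21.6. *Itgax*, which encodes the CD11c that the sort selected against, had 1640 and 0. Neutrophil genes did not all follow *Retnlg*. In Ly6C low and Ly6C hi libraries *S100a8* had 4142 and 3982, and *Csf3r* 205 and 393. *S100a9*, *Ngp* and *Ly6g* had the higher mean in Ly6C low. Libraries that share a number were taken as 1 mouse and those with different numbers as different mice, from the numbers in the labels, and p-values measure the spread between these 10 mice.

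All 10 transcripts were found in macrophage RNA, at low levels with 1 exception. They took 0.0404% to 0.106% of the gene reads of a library (median 0.0656%). *Trf* alone made up 48.5% to 91.0% of their summed normalized counts. Without *Trf*, the other 9 took 0.00647% (exact binomial 95% interval 0.00608% to 0.00687%) in the lowest library, Ly6C hi of mouse 20, and 0.0389% (0.0379% to 0.0399%) in the highest, Ly6C low of mouse 14. Only counting error enters these intervals, and they take reads as independent. Reads without molecular identifiers are not independent molecules, so that the intervals may be too narrow. Of the 180 values of these 9 genes, 29 were 0 and 1 lay between 1 and 3 reads. Zeros numbered 11 of 45 values in Ly6C hi and 9 of 45 in Ly6C low vehicle libraries, and 5 and 4 of 45 with Ac-6-FP, a difference that was not tested. The Ly6C low library of mouse 13 held 4 of them, and the other 4 Ly6C low vehicle libraries 5 of 36. The number of genes above 0 moved the same way, with medians of 9749 and 10379 in the vehicle groups and 13622 and 14084 in the Ac-6-FP groups, and its part in these zeros was not tested.

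Levels of different genes were set side by side per kilobase of exon. The divisor is approximate, since the reads were counted on the constitutive regions of FAST DB genes, while the lengths are those of all GENCODE exons of a gene. *Serpina1a*, whose row spans several copies, was left out. In Ly6C hi libraries the means were 1957 normalized counts per kilobase for *Trf*, 451 for *Fabp1*, 392 for *Apoa2*, 138 for *Apoa1*, 117 for *Alb* and 70.6 for *Ttr*. In Ly6C low libraries they were 1894 for *Trf*, 1170 for *Apoa2*, 703 for *Fabp1*, 539.9 for *Apoa1*, 221 for *Alb* and 166 for *Ttr*. *Trf* was thus the highest in both subsets, while no order of *Apoa2* and *Fabp1* can be read from these means, since *Fabp1* ranged from 0 to 780.1 normalized counts over the Ly6C hi libraries.

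The sum of all 10 transcripts was higher in Ly6C low than in Ly6C hi MoMac in 8 of the 10 mice, with medians of 9134 and 7368 normalized counts. *Trf* was then left out, a choice made after its values were seen, and the sum of the other 9 was higher in Ly6C low in each of the 10 mice. This sum was 1514 ± 517 normalized counts (SD, n = 5) in Ly6C hi vehicle, 1171 ± 323 in Ly6C hi Ac-6-FP, 3516 ± 1091 in Ly6C low vehicle (3323 ± 1157, n = 4, without mouse 13) and 3167 ± 636 in Ly6C low Ac-6-FP libraries. In vehicle mice 11 to 15 the sum was 1049.6, 1267, 1287, 2370.4 and 1595 in Ly6C hi libraries. In their Ly6C low libraries it was 3326, 2262, 4287, 4932 and 2770.4. In Ac-6-FP mice 16 to 20 it was 1438, 1322, 1447, 872 and 775 in Ly6C hi and 3467, 3969.7, 3347, 2639 and 2412 in Ly6C low libraries. Within a mouse, Ly6C low exceeded Ly6C hi by a factor of 1.74 to 3.33 (median 2.71), and the ranges of vehicle (1.74 to 3.33) and Ac-6-FP mice (2.31 to 3.11) overlapped. Among all libraries, those of both subsets overlapped only through the Ly6C hi library of mouse 14, which lay above the Ly6C low library of mouse 12.

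**Figure D1:**
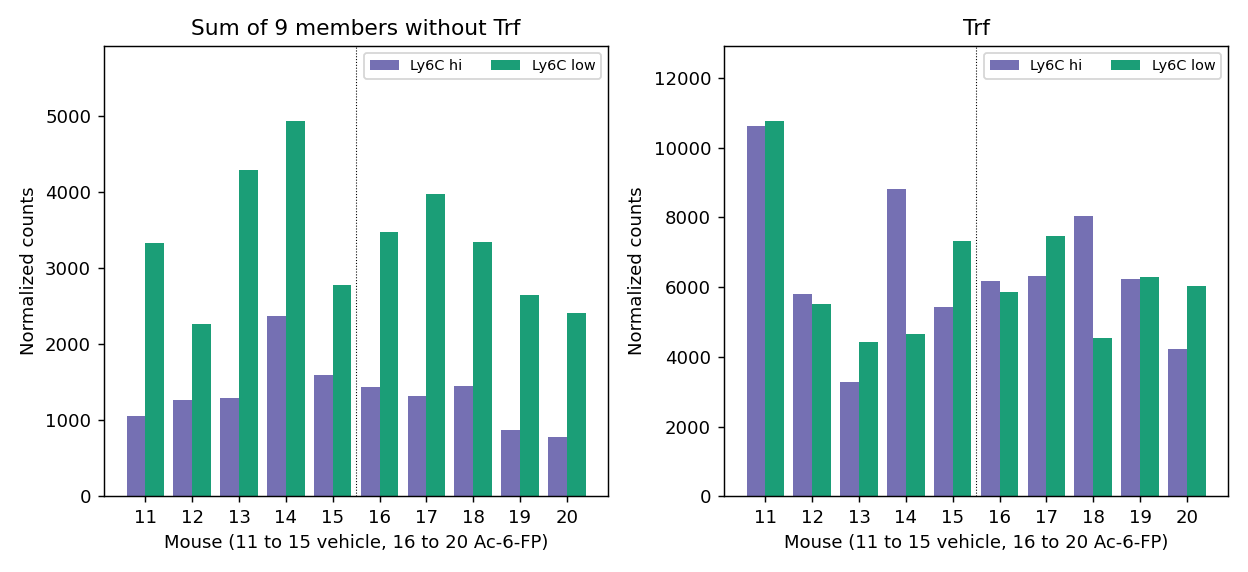
Bars give normalized counts of the Ly6C hi and Ly6C low library of each mouse, as the sum of the 9 transcripts without Trf on the left and for Trf on the right, with vehicle mice left and Ac-6-FP mice right of the dotted line. The summed transcripts are higher in Ly6C low in all 10 mice (775 to 2370 against 2262 to 4932), whereas Trf is higher in Ly6C low in 6 mice and in Ly6C hi in 4.

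The subsets were compared gene by gene with limma on the within-mouse difference of log2(normalized count + 1), and p-values were adjusted over all 17248 genes tested. Of the 10 members, 2 passed an adjusted p-value of 0.05, *Apoa1* and *Apoa2*, both lower in Ly6C hi MoMac. Over all genes tested, 3.41% were called lower in Ly6C hi, and 5.22% were called in either direction. The estimate was below 0 for 9 of the 10 members and above 0 for *Trf*, with a median of -1.11, against -0.03 over all genes. *Apob* reached the filter only through the Ly6C low groups, which fixed its direction. Of the other 9, with a mean of at least 10 over all 20 libraries, 8 were below 0, against 47.8% of all genes so filtered. A lower value in Ly6C hi in all 10 mice was met by the same 2 genes, where 1.98% of all genes tested met it, and in at least 9 mice by 3 genes, *Alb* being the third, against 4.81%. Without mouse 13, the third gene past the threshold was *Serpina1a* (log2 difference -1.67, limma adjusted p = 0.0378). Calls over all genes rose too, to 769 of 17222 lower in Ly6C hi, from 588 of 17248 with all mice.

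*Apoa1* (GSMG0039475, chromosome 9 from 46228630 to 46230469, in mm10 as all positions of the files) encodes the main protein of high-density lipoprotein. Ly6C hi vehicle libraries of mice 11 to 15 held 109.7, 103, 12.35, 133 and 155 normalized counts, and those of Ac-6-FP mice 16 to 20 held 278, 171, 295, 226 and 226. In Ly6C low libraries the values were 513, 514, 964, 606 and 508 with vehicle. With Ac-6-FP they were 839, 1252, 404, 621 and 452 in Ly6C low libraries. Each Ly6C low library lay above each Ly6C hi library, and the lowest value of all was that of mouse 13 in Ly6C hi. The log2 difference Ly6C hi minus Ly6C low was -2.19 (95% interval -3.21 to -1.18, limma adjusted p = 0.0165; two-sided exact permutation test by sign flips over 10 mice, p = 0.00195, the smallest it can give). It ranged from -2.43 to -1.75 under the alternatives, and the adjusted p was above 0.05 in 1 of 19, edgeR without mouse 15 (0.0821).

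*Apoa2* (GSMG0001039, chromosome 1 from 171221564 to 171226379), which encodes another protein of high-density lipoprotein, went the same way. The row overlaps *Tomm40l* on the opposite strand, and counting by strand is not given in the sources used here, so that reads of both genes may be joined. Ly6C hi libraries held 81.4, 432, 166, 233 and 163 normalized counts with vehicle and 309, 215, 228, 181 and 93.9 with Ac-6-FP. In Ly6C low libraries the values were 388, 778, 1471, 1116 and 499 with vehicle. The Ly6C low libraries of Ac-6-FP mice held 585, 279, 586, 259.6 and 321. The subsets overlapped over all libraries, and within each mouse the Ly6C low value was the higher. The log2 difference was -1.50 (95% interval -2.20 to -0.80, limma adjusted p = 0.0170; exact permutation test by sign flips, p = 0.00195), and the adjusted p was above 0.05 in the same alternative as for *Apoa1* (0.107).

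*Apob* (GSMG0050865, chromosome 12 from 7977648 to 8016838), the large structural protein of very low density lipoprotein, was at 0 in 17 of 20 libraries. It was above 0 in both libraries of mouse 20 (30.6 normalized counts in Ly6C hi and 63.1 in Ly6C low) and in the Ly6C low library of mouse 11 (77.2). Its mean reached the filter of 10 normalized counts only in the Ly6C low groups, so that its estimate (-0.73, 95% interval -2.18 to 0.72) is no evidence of a direction.

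Of the carrier proteins, none passed the threshold between subsets. *Alb* (GSMG0029394, chromosome 5 from 90460870 to 90476601), which encodes albumin, held 268, 0, 104, 939 and 430.2 normalized counts in Ly6C hi vehicle libraries and 367, 360.2, 109.5, 54.1 and 106 in Ly6C hi Ac-6-FP libraries. The Ly6C low libraries were closer together, at 426, 465, 519.7, 549 and 595 with vehicle. With Ac-6-FP they held 513, 603, 641, 562 and 291. In 9 of 10 mice the Ly6C low value was the higher, the exception being mouse 14, whose Ly6C hi library held the most *Alb* of all. The log2 difference was -2.01 (95% interval -3.76 to -0.26), which did not pass the adjustment over all genes (limma adjusted p = 0.219; exact permutation test by sign flips without adjustment, p = 0.0117). It rested in part on the 0 of mouse 12 in Ly6C hi and was -1.25 without this mouse.

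*Ttr* (GSMG0018104, chromosome 18 from 20665250 to 20674324), which encodes the carrier of thyroxine and retinol binding protein, ranged from 0 to 207 normalized counts in Ly6C hi and from 0 to 329 in Ly6C low libraries, each with 1 library at 0. Its log2 difference was -0.96 (95% interval -3.02 to 1.10), or -1.81 (-3.15 to -0.46, limma adjusted p = 0.119) without mouse 13 and -0.48 without mouse 12. *Trf* (GSMG0041221, chromosome 9 from 103204001 to 103230318), which encodes the iron carrier transferrin and is also known to be transcribed in macrophages, was above 0 in all 20 libraries. Ly6C hi libraries held 10626, 5807, 3279, 8826 and 5427 normalized counts with vehicle and 6189, 6319, 8045, 6238 and 4216 with Ac-6-FP. Ly6C low libraries held 10766, 5507, 4429, 4649 and 7335 with vehicle. With Ac-6-FP the Ly6C low values were 5863, 7459, 4541, 6299 and 6044. The highest values of both subsets came from mouse 11. The log2 difference between subsets was 0.02 (95% interval -0.31 to 0.36, limma adjusted p = 0.949), an interval that excludes a log2 difference of the size of *Apoa1* or *Apoa2*. A read-through gene model on the same strand, *Gm20425*, overlaps *Trf*.

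For the clotting factor, the inhibitors and the fatty acid carrier the spread between mice was wide. *Fgb* (GSMG0025563, chromosome 3 from 83042246 to 83049863), the beta chain of fibrinogen, was 0 in 2 Ly6C hi libraries and 1 Ly6C low library and reached 312 and 1327 normalized counts. Its log2 difference was -1.59 (95% interval -4.63 to 1.46). The row of *Serpina1a* (GSMG0052775, chromosome 12 from 103728156 to 103904950), an alpha-1-antitrypsin that inhibits neutrophil elastase, spans several near-identical copies, so that its reads cannot be given to 1 of them. It held 11.9 to 436 normalized counts in Ly6C hi and 0 to 612 in Ly6C low libraries, the 0 being that of mouse 13, and its log2 difference was -0.95 (95% interval -2.46 to 0.56). *Ahsg* (GSMG0014797, chromosome 16 from 22892015 to 22899450), which encodes fetuin-A, an inhibitor of mineral deposition, reached 107 in Ly6C hi and 387 in Ly6C low libraries (log2 difference -1.26, 95% interval -2.75 to 0.24). Its row overlaps the antisense gene *Gm30505*. *Fabp1* (GSMG0032043, chromosome 6 from 71199877 to 71205034), the fatty acid binding protein of the hepatocyte cytoplasm, ranged from 0 to 780.1 in Ly6C hi and from 4.17 to 1471 in Ly6C low libraries, with a log2 difference of -0.93 (95% interval -3.29 to 1.43), or -1.78 without mouse 13 and -0.21 without mouse 12. In each of these 4 genes 8 of 10 mice had the higher value in Ly6C low.

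**Figure D2:**
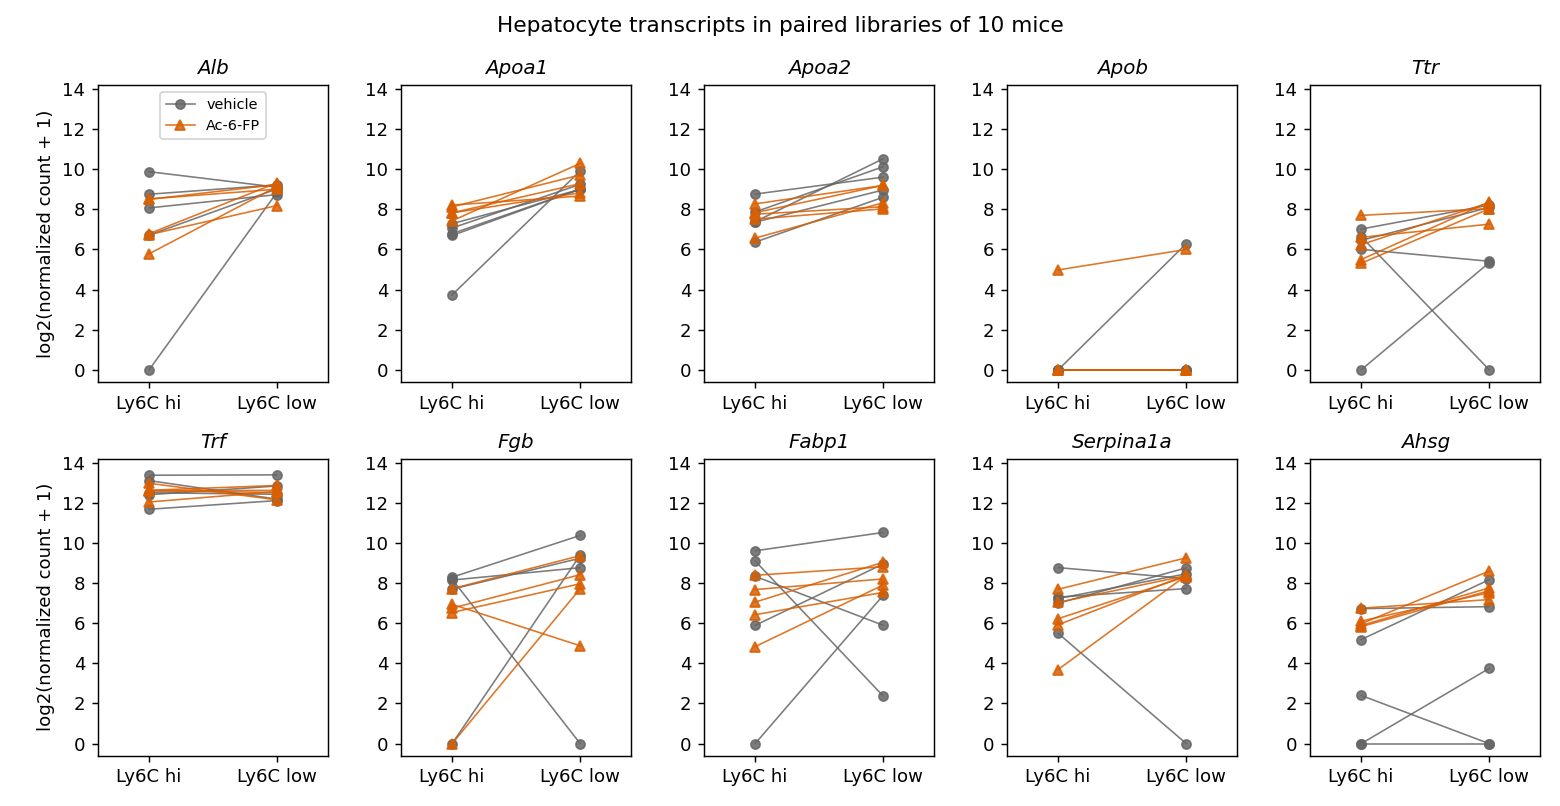
Each panel shows 1 transcript as log2(normalized count + 1), with a line joining the Ly6C hi and Ly6C low library of each mouse, circles for vehicle and triangles for Ac-6-FP. All 10 lines rise towards Ly6C low for Apoa1 and Apoa2, Trf stays between 3279 and 10766 normalized counts in both subsets, and points at 0 are libraries without a read.

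The make-up of the set varied from library to library. Among the 9 without *Trf*, *Apoa1* had the largest share of the summed normalized counts in 7 libraries, *Alb* in 5, *Fabp1* in 3, *Apoa2* and *Fgb* in 2 each and *Serpina1a* in 1. The share of *Alb* ranged from 0% to 39.6% (median 15.0%) and that of *Fabp1* from 0% to 42.7% (median 10.1%). *Fabp1* took 42.7% of the sum in the Ly6C hi library of mouse 13 and *Serpina1a* 34.4% in that of mouse 12, in which *Alb* was 0. Within Ly6C hi, the highest values of the 9 transcripts fell in 6 different libraries, and no library held more than 2 of them. Within Ly6C low they also fell in 6 libraries, with at most 2 in 1 library. The Ly6C low library of mouse 13 held the highest *Apoa2* and *Fgb* of its subset (1471 and 1327 normalized counts), while *Ttr*, *Serpina1a* and *Ahsg* were at 0 in it.

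**Figure D3:**
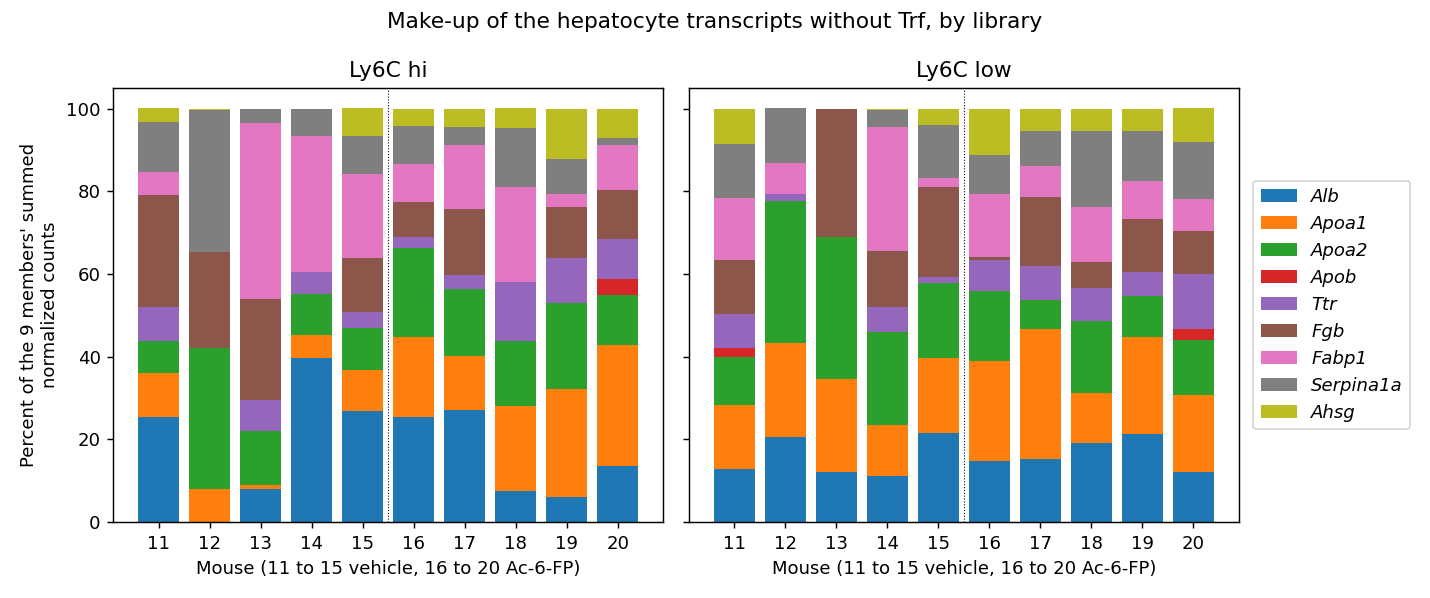
Stacked bars give the percent of the summed normalized counts of the 9 transcripts without Trf that each transcript takes in each library, with vehicle mice left and Ac-6-FP mice right of the dotted line. The leading transcript changes between libraries, from Alb at 39.6% in Ly6C hi of mouse 14 to Fabp1 at 42.7% in Ly6C hi of mouse 13.

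Within each subset, the 5 Ac-6-FP mice were then set against the 5 vehicle mice. None of the 10 members passed limma's adjusted threshold in either subset, where 0.0754% of all genes tested passed it in Ly6C hi and 0.0522% in Ly6C low MoMac. With an unadjusted p under 0.05 there were 2 members in each subset, against 8.73% and 9.31% of all genes. For edgeR on the recovered reads 0 members passed in both subsets. It called 0 of all 17248 genes as well, so that this says nothing about the members. In Ly6C hi 7 members were estimated higher and 3 lower with Ac-6-FP, with a median log2 difference of 0.435, against 0.35 over all genes. In Ly6C low 6 were higher and 4 lower, with a median of 0.12 (0.18 without the library of mouse 13), against 0.91 over all genes (0.35 without that library).

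*Apoa1* was the only member whose groups did not overlap, in Ly6C hi, where 1.35% of all genes tested met this. As listed above, its 5 Ac-6-FP libraries (171 to 295 normalized counts) lay above the 5 vehicle libraries (12.35 to 155). The log2 difference was 1.57 (95% interval 0.11 to 3.02, limma adjusted p = 0.544; exact permutation test without adjustment, p = 0.00794, the smallest that 5 against 5 mice allow). Without mouse 13, which held the lowest value, it was 0.92. In Ly6C low MoMac the groups overlapped and the difference was 0.12 (95% interval -0.67 to 0.91). The differences in both subsets were not shown to differ from each other (limma adjusted p = 0.830; exact permutation test, p = 0.0952).

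*Ahsg* was estimated higher with Ac-6-FP in both subsets. In Ly6C hi it held 35.4, 4.28, 0, 0 and 105 normalized counts with vehicle and 61.8, 58.1, 68, 107 and 55.9 with Ac-6-FP. In Ly6C low it held 287, 0, 0, 12.45 and 112 with vehicle and 387, 216, 183, 144 and 196 with Ac-6-FP. All Ac-6-FP libraries were above 0, whereas vehicle mice 12, 13 and 14 held 0 to 12.45 in both subsets and mice 11 and 15 values within or near the Ac-6-FP range. The log2 differences were 3.25 in Ly6C hi (95% interval 0.11 to 6.38, limma adjusted p = 0.553) and 3.99 in Ly6C low (95% interval 0.32 to 7.66, limma adjusted p = 0.528), with an exact permutation p of 0.0635 in each. Without the library of mouse 13 the difference in Ly6C low was 3.05 (95% interval -0.39 to 6.49). A fit with each library's count of detected genes as a covariate gave 1.79 and 1.91. In Ly6C hi and Ly6C low, a pseudocount of 10 gave 1.72 and 2.54, a pseudocount of 0.1 gave 4.62 and 5.33, and edgeR gave 1.293 and 1.415.

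For *Apoa2* in Ly6C low MoMac the estimate was lower with Ac-6-FP (-0.99, 95% interval -1.96 to -0.01, limma adjusted p = 0.532; exact permutation test, p = 0.0556), or -0.75 without the library of mouse 13, and -0.39 in a fit that took each library's count of detected genes as a covariate. *Alb* differed by -0.01 in Ly6C low (95% interval -0.60 to 0.58) and by 0.58 in Ly6C hi (95% interval -3.34 to 4.50). *Trf* differed by -0.05 in both subsets (95% intervals -0.76 to 0.67 in Ly6C hi and -0.62 to 0.52 in Ly6C low). The 95% intervals of *Fgb*, *Fabp1*, *Ttr*, *Serpina1a* and *Apob* included 0 in both subsets and were 3.73 to 9.24 wide on the log2 scale.

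**Figure D4:**
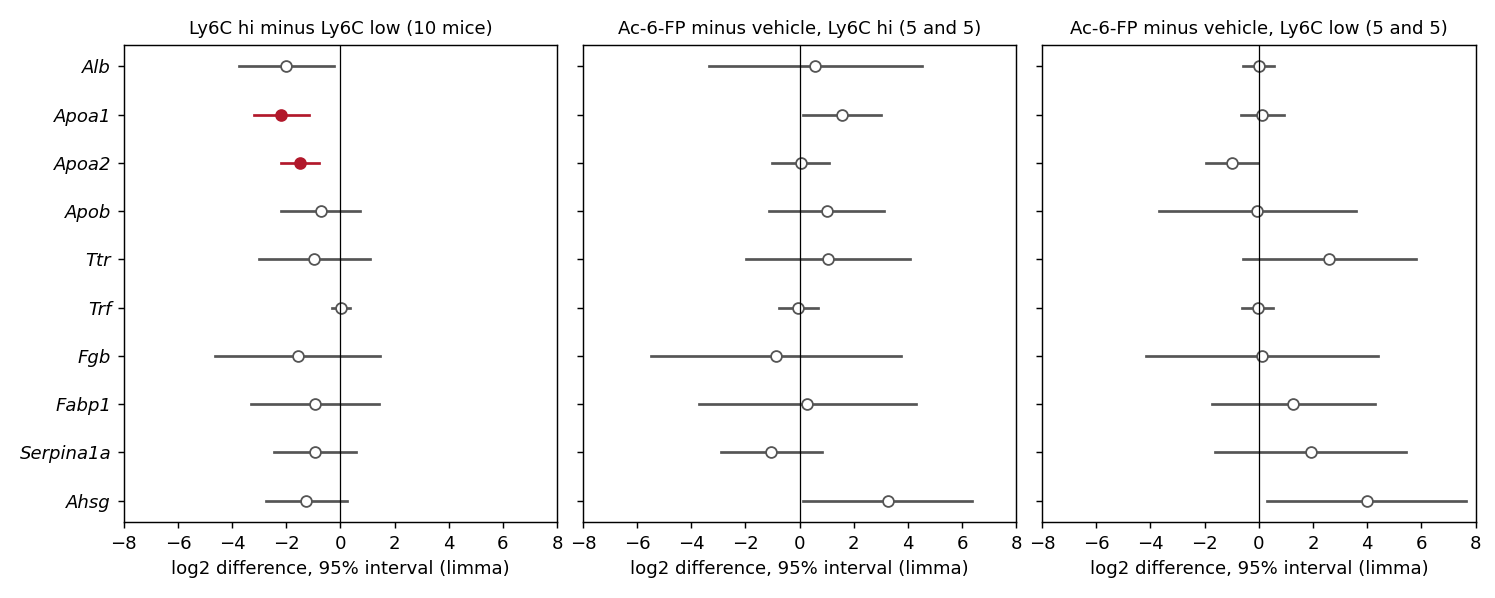
Points are limma estimates of the log2 difference for each transcript with 95% intervals, for Ly6C hi minus Ly6C low in the left panel and for Ac-6-FP minus vehicle within each subset in the other panels. Filled red points passed an adjusted p-value of 0.05 over 17248 genes. Apoa1 and Apoa2 passed between subsets, and no transcript passed with Ac-6-FP.

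Whether the Ac-6-FP difference itself differed between subsets was tested on the within-mouse differences. No member passed limma's threshold, which 0% of all genes tested passed. With edgeR 0 members and 0 of all genes passed. With limma 0 members had an unadjusted p under 0.05, where 4.87% of all genes did. The estimate (Ly6C hi minus Ly6C low) was above 0 for 5 members and below 0 for 5, with a median of -0.37 against -0.27 over all genes. *Serpina1a* had the lowest value, -2.95 (95% interval -5.97 to 0.06, limma adjusted p = 0.830; exact permutation test without adjustment, p = 0.0317, with 40 such tests run over members and comparisons). It was -1.71 (95% interval -3.57 to 0.14) without mouse 13, whose Ly6C low library held no read of *Serpina1a*, and the members' median was then 0.38. The rule of the study, a paired test of ratios to the vehicle mean over the Ac-6-FP mice with an unadjusted p of at most 0.05 and a fold of at least 1.5, was met by 5 of the 10 members, where 24.3% of all genes tested met it. Without the Ly6C low vehicle library of mouse 13 it was met by 3 (*Apoa1*, *Apoa2* and *Apob*), against 20.1% of all genes. *Apob* met it by construction, because it was 0 in both subsets in 4 of the 5 Ac-6-FP mice and their differences are then 1 constant set by the vehicle means. That rule takes the vehicle libraries as means and leaves out their spread. Here it was run on the genes tested, without the study's prior filter for expression above the background of intergenic regions. Its counts are therefore not those of the study.

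Most other hepatocyte genes were also estimated lower in Ly6C hi MoMac. Lists of plasma proteins, metabolic enzymes and transporters, and transcription factors of hepatocytes held 77 genes found by symbol, of which 57 were tested. Between subsets 2 passed as lower in Ly6C hi and 1 as higher, and the share called lower, 2 of 57, is near the 3.41% of all genes. The estimate was below 0 for 47 of the 57, or 82.5%, against 51.2% of all genes tested, with a median of -1.09. Of these, 17 reached the filter of a mean of 10 only through a Ly6C low group, which fixed their direction, and 2 only through a Ly6C hi group. Among the genes with a mean of at least 10 over all 20 libraries, a filter chosen after the data were seen, 35 of 43 were below 0, or 81.4%, against 47.8% of all genes so filtered. *Serpina3k*, a protease inhibitor, was lower in Ly6C hi in all 10 mice (mean 287 against 938 normalized counts, log2 difference -1.74, limma adjusted p = 0.0113). *Apoa5*, an apolipoprotein that controls plasma triglycerides, was 0 in all 10 Ly6C hi libraries and above 0 in 8 Ly6C low libraries, up to 274.9. It passed the test (limma adjusted p = 0.0295), and it is among the 17 genes whose direction the filter fixed. *Hp*, which encodes haptoglobin and is known to be transcribed in myeloid cells too, went the other way, at 37930 ± 5874 (SD, n = 10) in Ly6C hi and 17990 ± 6185 in Ly6C low libraries (log2 difference 1.13, limma adjusted p = 0.000528). With Ac-6-FP 0 of the 57 passed in either subset, with medians of 0.07 in Ly6C hi and 0.94 in Ly6C low MoMac (0.0963 without the library of mouse 13).

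The 3 highest of the enzyme and transporter list were *Oat*, *Adh1* and *Hal*. *Adh1*, an alcohol dehydrogenase, had a mean of 149 normalized counts in Ly6C hi and 451 in Ly6C low libraries, and *Hal*, the histidine ammonia-lyase, 280.4 and 27.3. *Oat*, an ornithine aminotransferase that many tissues use, had 1490 and 1314. None of the 25 genes tested on this list passed between subsets. Of the hepatocyte transcription factors, *Hnf4a*, *Foxa1*, *Foxa2* and *Foxa3* were at 0 in all 20 libraries. *Nr1i3*, a nuclear receptor, was the highest of this list, with a mean of 219 normalized counts in Ly6C hi and 168 in Ly6C low libraries, and *Nr0b2*, another nuclear receptor, was above 0 in 2 Ly6C hi libraries alone, up to 269.8. Of the other alpha-1-antitrypsin genes, *Serpina1d* had a mean of 207 in Ly6C hi and 550.3 in Ly6C low libraries and *Serpina1e* 121 and 171, and neither passed (limma adjusted p = 0.238 and 0.977).

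Markers of other cells also moved with the subsets, and their part in the difference of the members was not tested. The sort left out CD3, CD11c and Ly6G positive cells. Over all 17248 genes tested, 588 were called lower and 312 higher in Ly6C hi. Of 7 genes tested on a T, B and NK cell list 3 were higher in Ly6C low (*Klrb1c*, *Ncr1* and *Cd79a*). *Ncr1* and *Cd79a* reached the filter only through Ly6C low, which fixed their direction. The summed level of the list was 116.5 to 743 normalized counts in Ly6C hi and 6485 to 15070 in Ly6C low libraries. Of 6 dendritic cell genes 3 were higher in Ly6C low (*Itgax*, *Flt3* and *Ccr7*), with sums of 0 to 330.4 and 2285 to 12390. The direction of *Itgax* and *Ccr7* was fixed in the same way by the filter. The neutrophil list had 2 of 6 higher in Ly6C low (*Retnlg* and *Ngp*), with sums of 3444 to 7297 and 10130 to 127600. The direction of *Ngp* was again fixed by the filter. Of the 6 estimates, 4 were below 0 and 2 above, *Csf3r* (log2 difference 2.33) and *S100a8* (0.94), and neither of these 2 passed. For these 3 lists the sum was higher in Ly6C low in 10 of 10 mice. The sinusoidal endothelial list had 2 of 5 tested genes higher in Ly6C low (*Clec4g* and *Oit3*). *Oit3* reached the filter only through Ly6C low, which fixed its direction. The sums were 31.9 to 330.6 and 0 to 4515, the 0 being that of mouse 13. They were mostly *Pecam1*, with means of 162 in Ly6C hi and 1483 in Ly6C low, which did not pass (limma adjusted p = 0.228). The macrophage and monocyte list had 3 of 10 genes higher in Ly6C hi (*Ly6c2*, *Ccr2* and *Cd14*), with sums of 55790 to 92690 and 26030 to 73900. *Ly6c2* belongs to the antigen that the sort split on. *Csf1r*, *Cx3cr1*, *Adgre1*, *Itgam* and *Cd68* had higher means in Ly6C low and did not pass. The paired log2 estimates of *Itgam* (0.45) and *Adgre1* (0.003) were nevertheless above 0, that is, towards Ly6C hi. *Fcgr1* (861 in Ly6C hi and 438.5 in Ly6C low) and *Mertk* (18.7 and 4.82) had higher means in Ly6C hi and did not pass either. No gene passed on the lists of Kupffer cells, bile duct cells, stellate cells, red cells and platelets. With Ac-6-FP no gene of any of these lists passed in either subset.

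**Figure D5:**
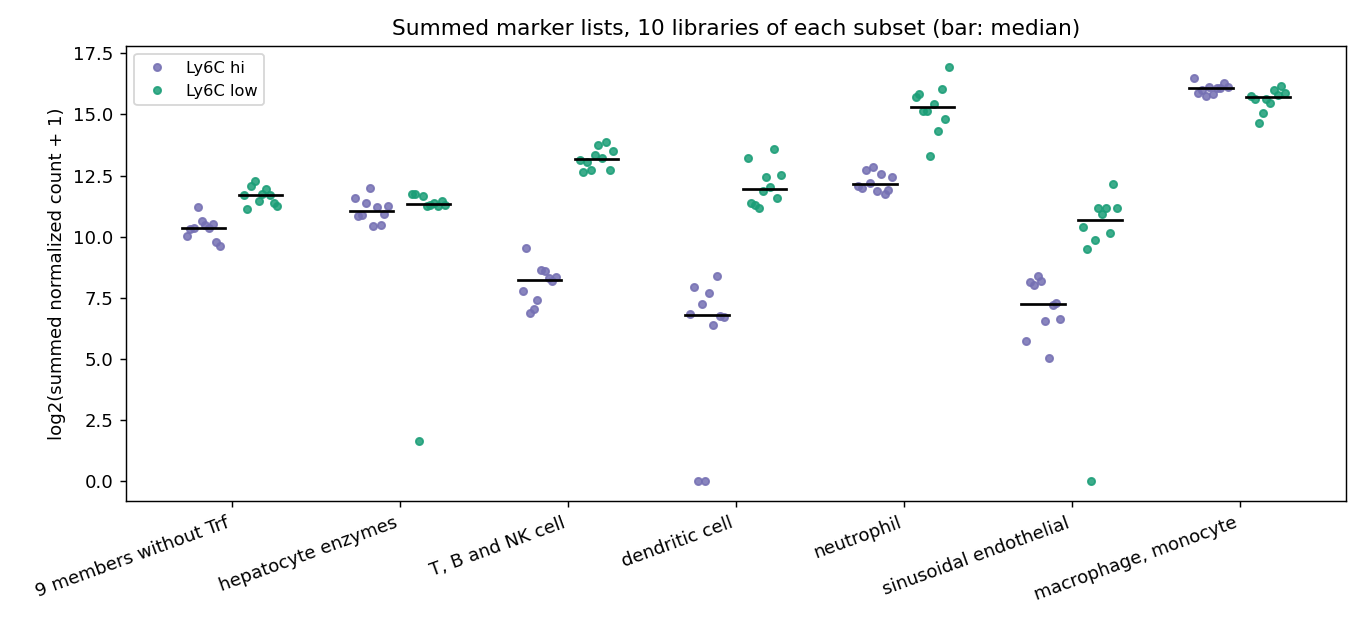
Points are log2(summed normalized count + 1) of marker lists in the 10 Ly6C hi and 10 Ly6C low libraries, with bars at the median. The 9 hepatocyte transcripts without Trf and the T, B and NK cell, dendritic cell, neutrophil and endothelial lists lie higher in Ly6C low, and the macrophage and monocyte list lies higher in Ly6C hi.

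The genes whose levels were most like the members were looked up on the hepatocyte lists. Likeness was taken as Pearson's correlation of log2(normalized count + 1) with the log2 of the summed members over 20 libraries, across 17238 other genes, and is a description, since all values of a library share its depth and the subset difference. The 10 genes with the highest values had correlations of 0.646 to 0.721. Those with a symbol were *BC031181*, *Cd82*, *Skil*, *Tnip1*, *Pmaip1*, *Kif3a* and *Cd209d*. The sum is mostly *Trf*, whose own correlation with it was 0.823, against 0.41 for *Alb*. With *Trf* left out of the sum, a choice made after its values were seen, the correlations were 0.876 to 0.945 and the leading genes were *Ms4a4b* and *Il2rg*, both known from lymphocytes. None of the 10 was on a hepatocyte list under any of the 4 measures tried. Only 57 of the 17238 genes ranked were on these lists, so that 0 of 10 is no result about the members.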

How the data were processed

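According to the Methods and the labels, RNA of sorted cells was made into libraries with a low-input kit, sequenced as reads of 75 bases, aligned with STAR (2.4.0 in the submitters' processing notes) to mm10 and counted on the constitutive regions of FAST DB genes. The deposited values are signal values, made by the authors by dividing the counts of each library by its DESeq2 size factor, with no division by gene length. Read recovery divided each value by 1 step per library, and 8 of 245897 values above 0 were not whole within a tolerance of 0.006.

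The members and gene lists were chosen with earlier results of these data known. Of the other lists, genes past the threshold were named, otherwise the 3 highest (1 such gene is not reported here), and the 10 genes most like the members. Differences were tested with limma 3.58.1 (R 4.3.3) on log2(normalized count + 1) for the 17248 genes with a mean of at least 10 in 1 of the 4 groups, with Benjamini-Hochberg adjustment over all of them and a threshold of 0.05. Subsets were compared within mice, with treatment as a covariate. Libraries with 1 number were taken as 1 mouse from the numbers in the labels and the study's use of a paired test, which do not state it, and their residuals correlated weakly (median 0.0338 over 10 mice, 0.00334 to 0.25, against -0.00496 between mice). Exact permutation tests of single genes were two-sided, run with Python 3.11.15. edgeR 4.0.16 was run on the recovered reads as an alternative. Fits were tested on simulated data. Positions are those of the files (mm10), exon lengths and overlaps those of GENCODE M21, and promoters those of RefSeq, which gave 8 of the 10 members.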

Additional observations from a re-analysis of the deposited data

Results flagged for a closer look

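In 43 groups of 5 libraries with more than 1 value, a library far from the other 4 was found 7 times, by a gap to its neighbour above 0.71 of the group's range, which chance gives in about 1 of 20 groups. *Apob* accounts for 3, since its only value above 0 in a group was that of mouse 20 (30.6 normalized counts in Ly6C hi and 63.1 in Ly6C low) or mouse 11 (77.2 in Ly6C low vehicle). *Apoa1* was high in the Ly6C low vehicle library of mouse 13, at 964 normalized counts against 606 in the next library. *Serpina1a* was high in the Ly6C hi vehicle library of mouse 12 (436, next 157) and in the Ly6C low Ac-6-FP library of mouse 18 (612, next 335). *Ahsg* was high in the Ly6C hi Ac-6-FP library of mouse 19 (107, next 68.0). The 7 values came from 7 libraries of 6 mice.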

How the results depend on the processing

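Between subsets, 87 of 89 estimates of single members under other scales, filters, normalizations or tests held their direction and their side of the threshold, and the 2 exceptions were *Apoa1* (-2.09) and *Apoa2* (-1.42) with edgeR without mouse 15, added after the data were seen, under which 0 members passed. That mouse was left out because 1 read stood for 0.989 normalized counts in its Ly6C hi library, so near 1 that recovery of whole reads is less sure there. Without the replicate block, that is without pairing by mouse, 2 members passed and the median was -1.11, as with it, and no other call changed. With 1 mouse left out, *Trf* ranged from -0.0756 to 0.0849, *Serpina1a* from -1.67 to -0.54, *Fgb* from -2.67 to -0.72 (without mouse 12 and 14), *Fabp1* from -1.78 to -0.21 and *Ttr* from -1.81 to -0.48 (both without mouse 13 and 12), and *Apob* was -0.11 without mouse 11. With Ac-6-FP in Ly6C hi, the members' median was 1.09 and 0.00788 with a pseudocount of 0.1 and 10, -0.00823 after quantile normalization, -0.0805 with edgeR and -0.17 to 1.02 with 1 mouse left out (without mouse 12 and 14). Signs turned there for *Alb* (-0.0199 with a pseudocount of 10, -0.76 with edgeR, -0.54 with genes detected as a covariate), *Apoa2* (-0.14 after quantile normalization, -0.0364 with edgeR) and *Fabp1* (-0.29, -0.38 and -1.11 with a pseudocount of 10, quantile normalization and edgeR). With 1 mouse left out in Ly6C hi, *Alb* ranged from -1.09 to 1.38, *Apoa2* from -0.25 to 0.34, *Ttr* from -0.26 to 1.49, *Trf* from -0.28 to 0.14, *Fgb* from -2.50 to 0.52 and *Fabp1* from -1.36 to 1.04. In Ly6C low, signs turned for *Alb* (0.12 with the covariate), *Apoa1* (-0.0873 after quantile normalization), *Fgb* (-0.45, -0.75 and -1.05 with a pseudocount of 10, quantile normalization and edgeR) and *Fabp1* (-0.44 with edgeR). With 1 mouse left out in Ly6C low, the median ranged from 0.0117 to 0.81 (without mouse 12 and 11), *Alb* from -0.10 to 0.19, *Apoa1* from -0.11 to 0.29, *Apob* from -1.26 to 1.20, *Trf* from -0.17 to 0.15 and *Fgb* from -1.77 to 0.82. For the difference of both changes, the median was -0.74 with the filter at a group mean of 100 and ranged from -0.54 to 0.38 with 1 mouse left out (without mouse 11 and 13). Without mouse 13, an alternative added for single members after the data were seen, signs turned for *Ttr* (0.159), *Trf* (-0.111) and *Fabp1* (0.807). The study's rule was met by 5 members, or 3 without the Ly6C low vehicle library of mouse 13. Leaving *Trf* out of the percent of gene reads, a choice made after its values were seen, moved the medians to 0.0114% in both Ly6C hi groups and to 0.0251% and 0.0249% in Ly6C low vehicle and Ac-6-FP libraries. The cause of these shifts was not tested. Depth limits the library of mouse 13 most, where 3 reads, the limit for a value of 0, stand for 6.26 normalized counts.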
